A study of Mus musculus with 6 samples.

Results

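Nuclear receptors are transcription factors that bind small lipophilic ligands, among them steroid and thyroid hormones, retinoids, fatty acids, oxysterols and bile acids, and switch target genes on or off by exchanging corepressors for coactivators. Most bind DNA through zinc fingers at copies of a short hexamer, as homodimers or as heterodimers with a retinoid X receptor (RXR), and a group of orphan members has no established hormone. In adipose tissue the family is known for fat cell differentiation, lipid storage and oxidation, and responses to glucocorticoid, thyroid hormone and estrogen.

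The genes described here are 36 members of this family, listed by name and grouped by the class of ligand they are known for. The genes and classes were chosen with earlier results of these data known. The arrays measured RNA of epididymal white adipose tissue (eWAT, a visceral fat pad) from male C57BL/6 mice aged 8 months, all of them on a high-fat diet for 21 weeks. WT mice (3 arrays, WT 1 to WT 3) were compared with mice that carry a Blnc1 transgene specific to adipose tissue (Tg, 3 arrays, Tg 1 to Tg 3). Blnc1, a long noncoding RNA, is known to act with the transcription factor EBF2 in brown fat. Which promoter drives the transgene, and whether more than 1 founder line was used, is not given in the sources used here. The labels number the replicates as biological ones, and each array was treated as a separate animal.

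A row of the deposited table that named only that gene was found for 35 of the 36 members, out of 22180 genes named in this way, and the row with the highest mean over the 6 arrays represented each gene. Nr1h2, the oxysterol receptor LXR-beta, had no such row and was not analysed here. Values are the deposited log2 values, so a difference of 1 is a 2-fold difference, and each difference is Tg minus WT with the standard error (SE) of the limma fit. Values of different genes come from different probes and were not compared with each other. Rows with a mean below the median of all rows (2.67), which are those of 8 of the 35 members, are called dim, which does not say that the RNA was absent.

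Facts of the whole series bear on these values. The 6 arrays correlated at 0.979 to 0.990 over all rows, and array medians lay between 2.64 and 2.75. No row carried the symbol Blnc1, so the transgene itself was not checked. All 9 measured white adipocyte markers read well above the median of all rows, and their mean was 10.19 to 10.51 in WT and 10.56 to 10.82 in Tg. The mean of 10 macrophage markers was 9.82 to 9.94 in WT and 9.62 to 9.68 in Tg. Of these 10, 9 read lower in Tg, while Cd163 read higher without overlap, by 0.64 ± 0.14. The mean of 5 endothelial markers, all 5 of them higher in Tg, was 8.25 to 8.79 in WT and 8.85 to 9.05 in Tg. The part of these 3 lists, which separate the genotypes, in the receptor differences was not tested. The mean of 13 epididymis and vas deferens markers was 5.45 in Tg 2 and 1.10 to 1.54 in the other 5 arrays. The mean of 6 smooth muscle markers was 7.59 in WT 2 and 8.39 in WT 3 and lay between 6.22 and 7.07 elsewhere, and the mean of 5 T cell markers was 5.72 in WT 2, 6.27 in WT 3 and between 4.0 and 4.93 elsewhere. The mean of 5 brown and beige adipocyte markers was 3.50 to 4.23 in WT and 3.64 to 3.76 in Tg, and that of 7 mesothelial markers 4.71 to 5.19 and 4.88 to 5.16. Results are therefore also given for WT 1, Tg 1 and Tg 3 alone, where WT is a single mouse. In whole tissue, fewer cells of a type and less RNA per cell cannot be told apart.

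Of the 35 members, 20 read higher and 15 lower in Tg, with a median difference of 0.085 and a range from -0.42 to 0.63. Over 1 row for each of the 22180 genes, 50.0% read higher (47.2% of all rows) and the median difference was 0.00020. The split depended on the scaling. With each array centred on its median 30 of 35 members read higher, as did 60.2% of all rows, whose median difference was then 0.051. After quantile normalization it was 27 of 35, and 51.6% of all rows with a median of 0.0077. The median absolute difference was 0.16 in the members and 0.12 over 1 row per gene. In 19 members the difference was smaller than its own SE.

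No member passed the threshold of an adjusted p of 0.05 (limma with Benjamini-Hochberg adjustment over 41345 rows), and neither did any other row (0.0% called). The members' adjusted p lay between 0.34 and 0.99. At an unadjusted p under 0.05 there were 4 members, or 11.4%, where 10.3% of all rows and 9.82% with 1 row per gene reached it. In 7 of the 35 members all 3 Tg arrays lay above or all below the 3 WT arrays, and 16.7% of all rows did so, or 18.2% with 1 row per gene. Both of these shares are near the background. Of the 7, 4 were higher in Tg (Esr1, Thrb, Ppard and Nr1i2; 11.4%, against 7.36% of all rows and 8.85% with 1 row per gene) and 3 lower (Nr2c2, Nr1i3 and Nr0b2; 8.57%, against 9.35% and 9.39%). Without WT 1, 12 members were apart, where 31.2% of all rows were, and 7 had an unadjusted p under 0.05, where 12.3% of all rows did. Without WT 3 and without Tg 2, 11 members were apart, where 25.3% and 27.6% of all rows were. With 3 arrays a group, the smallest 2-sided p of an exact permutation test is 0.1, which groups without overlap reach.

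**Figure D1:**
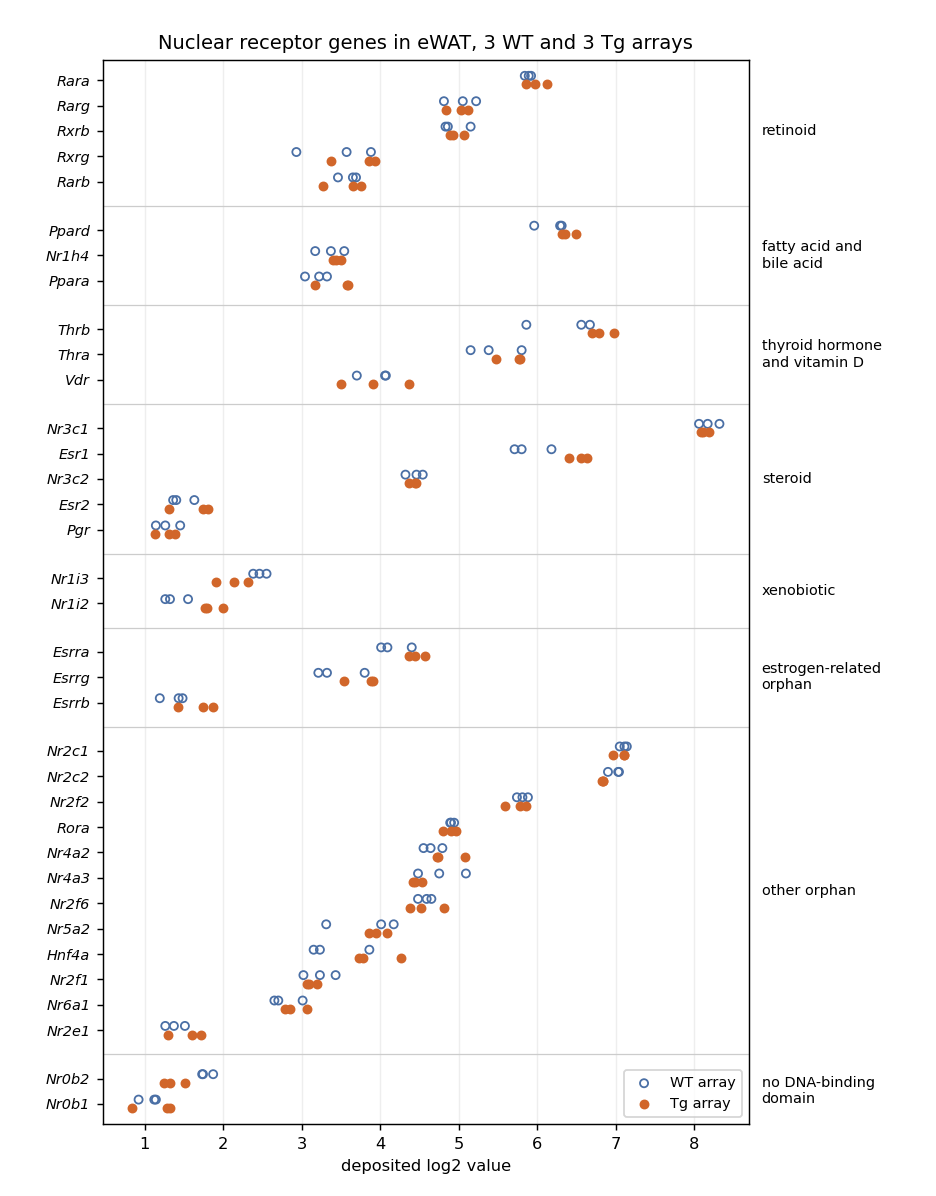
Deposited log2 value (horizontal axis) of 35 nuclear receptor genes in each WT array (open circles) and each Tg array (filled circles), grouped by ligand class. In Esr1 the Tg arrays sit between 6.40 and 6.63, all above the WT arrays at 5.71 to 6.18, and in most other genes the circles of the groups overlap; positions of different genes are not comparable.

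Of the 7 members whose groups did not overlap, 4 were not dim, namely Esr1, Thrb, Ppard and Nr2c2. Their promoters are shown because these receptors combine groups without overlap with a signal above the median of all rows. The sequences are the 250 bases before the gene's farthest upstream start in RefSeq (build GRCm38.p6, all on the plus strand, 5′ to 3′). Capitals mark matches to AGGTCA, the hexamer that many nuclear receptors bind, and to CCCNNGGG, the core of the motif of EBF factors, searched on both strands.
Esr1 (chr10:4611739-4611988): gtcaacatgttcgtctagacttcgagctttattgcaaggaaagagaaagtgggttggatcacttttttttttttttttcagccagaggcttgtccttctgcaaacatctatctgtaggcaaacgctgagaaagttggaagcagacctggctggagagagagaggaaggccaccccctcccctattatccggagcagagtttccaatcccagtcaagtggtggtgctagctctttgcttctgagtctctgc
Thrb (chr14:17660710-17660959): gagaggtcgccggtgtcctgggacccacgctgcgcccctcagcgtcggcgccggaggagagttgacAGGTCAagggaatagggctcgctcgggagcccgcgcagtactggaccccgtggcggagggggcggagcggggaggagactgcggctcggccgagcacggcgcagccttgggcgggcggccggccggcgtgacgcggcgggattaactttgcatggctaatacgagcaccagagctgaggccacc
Ppard (chr17:28232504-28232753): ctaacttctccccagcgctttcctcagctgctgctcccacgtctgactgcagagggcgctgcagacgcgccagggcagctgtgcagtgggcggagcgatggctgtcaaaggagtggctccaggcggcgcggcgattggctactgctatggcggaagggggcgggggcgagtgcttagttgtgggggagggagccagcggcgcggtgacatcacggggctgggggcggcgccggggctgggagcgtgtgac
Nr2c2 (chr6:92092183-92092432): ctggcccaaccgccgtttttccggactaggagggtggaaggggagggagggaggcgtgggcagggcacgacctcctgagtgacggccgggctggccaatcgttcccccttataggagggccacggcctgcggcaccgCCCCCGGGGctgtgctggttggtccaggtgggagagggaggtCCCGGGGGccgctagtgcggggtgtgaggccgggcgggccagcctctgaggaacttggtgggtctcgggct

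Among these 4 windows, only that of Thrb held the AGGTCA hexamer, beginning 184 bases before the start, and only that of Nr2c2 held the CCCNNGGG core, in 3 matches of which a pair overlaps. Windows were listed for 33 of the 35 members. The hexamer was found in 7 of their 49 windows (14.3%), and in 14.0% of all 32851 windows of the same length. The CCCNNGGG core, which reads the same on either strand, was found in 9 of the 49 (18.4%) against 11.8% of all windows. These matches describe letters in a window and do not show binding.

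The steroid hormone receptors held the largest difference of the family. Esr1, which encodes estrogen receptor alpha, the estrogen receptor best known in fat, read 5.80 in WT 1, 6.18 in WT 2 and 5.71 in WT 3, and 6.56 in Tg 1, 6.63 in Tg 2 and 6.40 in Tg 3. The values of every other gene are given in the same order of arrays. All 3 Tg arrays were above all 3 WT arrays, with 0.22 between the nearest pair. The mean was 6.53 ± 0.12 in Tg and 5.90 ± 0.25 in WT (SD, n = 3), a difference of 0.63 ± 0.15 (SE) or 1.55-fold, with an adjusted p of 0.34 in limma. Leaving out any 1 array gave differences from 0.54 to 0.77, and WT 1, Tg 1 and Tg 3 alone gave 0.68.

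The other steroid receptors differed by no more than their SE. Nr3c1, the glucocorticoid receptor, read 8.06, 8.32 and 8.17 in WT and 8.11, 8.09 and 8.19 in Tg, so the groups overlapped, and the difference was -0.054 ± 0.11. Nr3c2, the mineralocorticoid receptor, differed by -0.017 ± 0.10, and its dim second row by 0.072 ± 0.17. The dim rows of Esr2, which encodes estrogen receptor beta, and of Pgr, the progesterone receptor, differed by 0.16 ± 0.16 (0.064 without Tg 2) and by -0.0052 ± 0.13. Pgr is also a classical estrogen target, and it ranged only from 1.13 to 1.45 over the 6 arrays.

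Both thyroid hormone receptor genes had higher means in Tg, with overlap between the groups in Thra. Thrb, which encodes receptor beta, read 6.67, 6.56 and 5.86 in WT and 6.70, 6.79 and 6.98 in Tg. The groups did not overlap, but Tg 1 and WT 1 were only 0.03 apart, and WT 3 was far below the rest. The difference was 0.46 ± 0.23 (adjusted p = 0.54 in limma), it was 0.21 without WT 3, and in WT 1, Tg 1 and Tg 3 alone it was 0.17. Thra, which encodes receptor alpha, read 5.45 ± 0.33 in WT and 5.67 ± 0.17 in Tg (SD, n = 3), a difference of 0.23 ± 0.19, and was -0.18 in WT 1, Tg 1 and Tg 3 alone. Vdr, the vitamin D receptor, differed by -0.020 ± 0.23 and had its highest value, 4.36, in Tg 2.

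The lipid sensors had higher means in Tg in all 3 measured genes, but the sign of Nr1h4 turned without WT 3. Ppard, which encodes PPAR-delta, a fatty acid receptor of oxidative metabolism, read 6.29, 6.31 and 5.96 in WT and 6.35, 6.49 and 6.32 in Tg. The Tg arrays were all above the WT arrays, but by only 0.01 at the nearest pair. The difference was 0.20 ± 0.13 (adjusted p = 0.64 in limma) and was 0.086 without WT 3 and 0.047 in WT 1, Tg 1 and Tg 3 alone. Ppara, the fatty acid receptor of hepatic beta-oxidation, ranged from 3.04 to 3.32 in WT and from 3.17 to 3.59 in Tg, with Tg 2 inside the WT range, and differed by 0.25 ± 0.15. Nr1h4, the bile acid receptor FXR, differed by 0.084 ± 0.12, by -0.012 without WT 3 and by -0.091 in WT 1, Tg 1 and Tg 3 alone.

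Retinoid receptors overlapped between the genotypes in all 5 genes, with differences from -0.045 to 0.26. Rara, which encodes retinoic acid receptor alpha, read 5.92, 5.84 and 5.89 in WT and 5.86, 6.12 and 5.97 in Tg, with Tg 1 inside the WT range, and differed by 0.10 ± 0.11 (0.033 without Tg 2). Rarb and Rarg, the beta and gamma forms, differed by -0.045 ± 0.15 and -0.032 ± 0.14, and Rxrb, a general heterodimer partner, by 0.024 ± 0.12. Rxrg, a retinoid X receptor of more restricted expression, read 3.88, 3.57 and 2.93 in WT and 3.86, 3.37 and 3.93 in Tg. Its difference of 0.26 ± 0.27 rested on the low value of WT 3 and was -0.0057 without that array.

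The xenobiotic receptors were both dim, and they pointed in opposite directions. Nr1i2, which encodes PXR, a receptor known for drug and bile acid responses in liver, read 1.32, 1.26 and 1.55 in WT and 1.99, 1.79 and 1.77 in Tg. These groups were 0.23 apart at the nearest pair, and the difference was 0.48 ± 0.12 (adjusted p = 0.35 in limma). Nr1i3, which encodes CAR, its relative with overlapping targets, read 2.38, 2.55 and 2.46 in WT and 1.91, 2.31 and 2.14 in Tg. All Tg arrays were below all WT arrays, by 0.07 at the nearest pair, and the difference was -0.34 ± 0.13 (adjusted p = 0.45 in limma). Both rows read below the median of all rows in every array.

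The atypical receptors lack a DNA-binding domain and repress other receptors by pairing with them. Nr0b2, which encodes SHP, the FXR-induced repressor of bile acid synthesis in liver, read 1.73, 1.87 and 1.74 in WT and 1.51, 1.24 and 1.32 in Tg. The Tg arrays were all lower, by 0.22 at the nearest pair, and the difference was -0.42 ± 0.11 (adjusted p = 0.35 in limma) on a dim row. Nr0b1, which encodes DAX-1, a repressor of steroidogenic genes, was also dim, ranged from 0.84 to 1.32, and differed by 0.085 ± 0.16.

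The estrogen-related receptors, orphans known as activators of mitochondrial and oxidative genes, read higher in Tg in all 3 genes by similar amounts, and the groups overlapped in each. Esrra read 4.01, 4.09 and 4.40 in WT and 4.57, 4.44 and 4.36 in Tg, so WT 3 lay just above Tg 3, and the difference was 0.29 ± 0.14 (adjusted p = 0.53 in limma). Without WT 3 it was 0.40. Esrrg differed by 0.33 ± 0.19 (0.51 without WT 2) and the dim Esrrb by 0.31 ± 0.15. In WT 1, Tg 1 and Tg 3 alone the differences were 0.45 for Esrra, 0.58 for Esrrg and 0.15 for Esrrb. The overlap depended on the scaling. With the arrays centred on their medians the groups of Esrra and Esrrb did not overlap, nor did those of Esrra after quantile normalization.

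**Figure D2:**
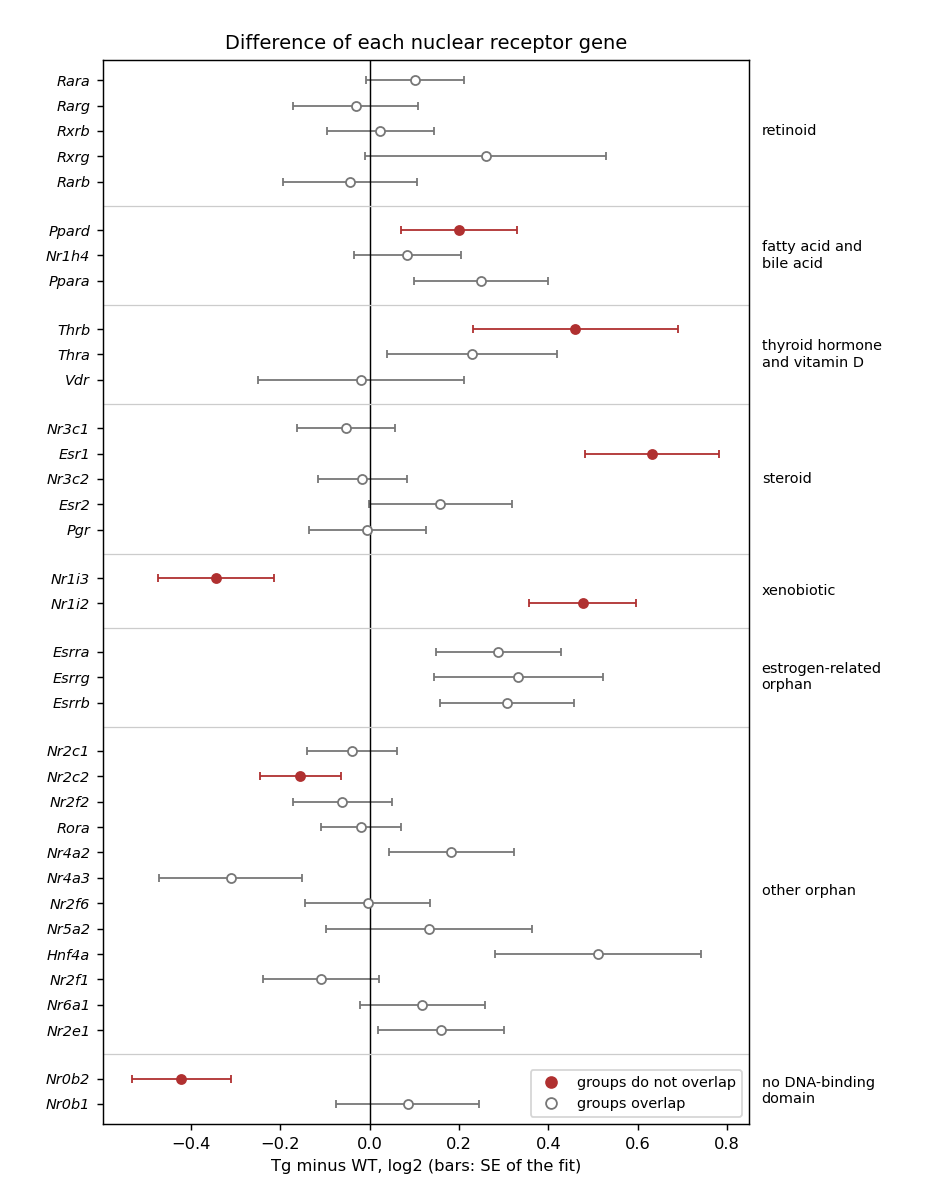
Difference between Tg and WT on the log2 scale (horizontal axis) for 35 nuclear receptor genes by ligand class, with bars of 1 SE of the limma fit; filled points are genes whose groups do not overlap. Esr1 lies farthest to the right at 0.63 and Nr0b2 farthest to the left at -0.42, and none of the 35 passed the threshold.

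The other orphan receptors were the largest class, with 5 of 12 higher and 7 lower in Tg and a median of -0.012. Nr2c1 and Nr2c2 encode the testicular receptors TR2 and TR4, which bind the same hexamer repeats as retinoid receptors. Nr2c2 read 7.04, 6.90 and 7.03 in WT and a narrow 6.82, 6.84 and 6.84 in Tg. The Tg arrays were lower by 0.05 at the nearest pair, and the difference was -0.16 ± 0.09 (adjusted p = 0.61 in limma). With the arrays centred on their medians it was -0.090 and the groups overlapped. Nr2c1 read 7.05, 7.14 and 7.11 in WT and 7.11, 6.97 and 7.10 in Tg, overlapped, and differed by -0.040 ± 0.10.

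The COUP-TF genes, repressors known to restrain fat cell differentiation, were close between the genotypes. Nr2f2 differed by -0.061 ± 0.11, Nr2f1 by -0.11 ± 0.13 (-0.010 without WT 3) and Nr2f6, a related repressor, by -0.0046 ± 0.14. Rora, a receptor that drives clock genes, differed by -0.020 ± 0.09. These 4 genes overlapped between the groups, and all but Nr2f1 took the other sign after centring on the array median.

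Hnf4a and Nr4a3 held the largest differences among the overlapping genes of this class of other orphans. Hnf4a, known as a master regulator of hepatic and epithelial genes, read 3.15, 3.86 and 3.23 in WT and 3.73, 4.26 and 3.78 in Tg. WT 2 lay above Tg 1 and Tg 3, and the difference was 0.51 ± 0.23 (adjusted p = 0.52 in limma). Its highest array was Tg 2, which carried the epididymis markers. The difference was 0.34 without Tg 2, 0.73 without WT 2 and 0.60 in WT 1, Tg 1 and Tg 3 alone. Nr4a3, an immediate early orphan, read 4.48, 4.75 and 5.09 in WT and 4.42, 4.53 and 4.44 in Tg, a difference of -0.31 ± 0.16, which was -0.15 without WT 3 and -0.050 in WT 1, Tg 1 and Tg 3. Its relative Nr4a2 pointed the other way at 0.18 ± 0.14, and at 0.063 without Tg 3.

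The remaining orphans varied within the spread of the arrays. Nr5a2, which encodes LRH-1, an activator of bile acid and steroid genes, read 4.17, 4.01 and 3.31 in WT and 3.95, 4.08 and 3.86 in Tg. Its difference of 0.13 ± 0.23 was -0.13 without WT 3. Nr6a1, the germ cell nuclear factor, differed by 0.12 ± 0.14 (0.035 without Tg 1), and the dim Nr2e1, known from neural stem cells, by 0.16 ± 0.14 (0.068 without Tg 3).

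The low values of WT 3 recurred across members. WT 3 was the lowest of the 6 arrays in 11 of the 35 members (31.4%), and in 21.2% of all genes. These 11 were Ppara, Ppard, Rxrg, Thra, Thrb, Nr1h4, Esr1, Esrrg, Nr3c2, Nr2e1 and Nr5a2. The same array had the lowest mean of the white adipocyte markers (10.19) and of 5 endothelial markers (8.25, against 8.63 to 9.05 elsewhere). Its mean of the brown and beige adipocyte markers (3.50) was also the lowest. It had the highest mean of the T cell, smooth muscle, macrophage (9.94) and mesothelial (5.19) markers. The part of these markers in the receptor values was not tested. Without WT 3 the family's median difference was 0.046.

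Tg 2 was the highest array in 8 members (22.9%, against 14.5% of all genes). These were Ppard, Rara, Vdr, Nr0b1, Esr1, Esr2, Esrrb and Hnf4a. Of the 13 epididymis and vas deferens markers, 9 were highest in Tg 2, led by Gpx5 at 10.77 and Lcn9 at 9.87, while Lcn5 read 2.15 and Rnase9 0.77 there. Their part in these 8 values was not tested. For Esr1 the difference without Tg 2 lay within the range of 0.54 to 0.77 given above. In WT 1, Tg 1 and Tg 3 alone, 20 of the 35 members read higher, where 49.9% of all rows did, and the median was 0.017. The count equals that with all arrays, but the genes were not all the same. Rxrb, Rara, Thra, Nr1h4 and Nr5a2 turned lower, and Rarb, Vdr, Nr3c1, Nr2c1 and Nr2f2 turned higher.

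**Figure D3:**
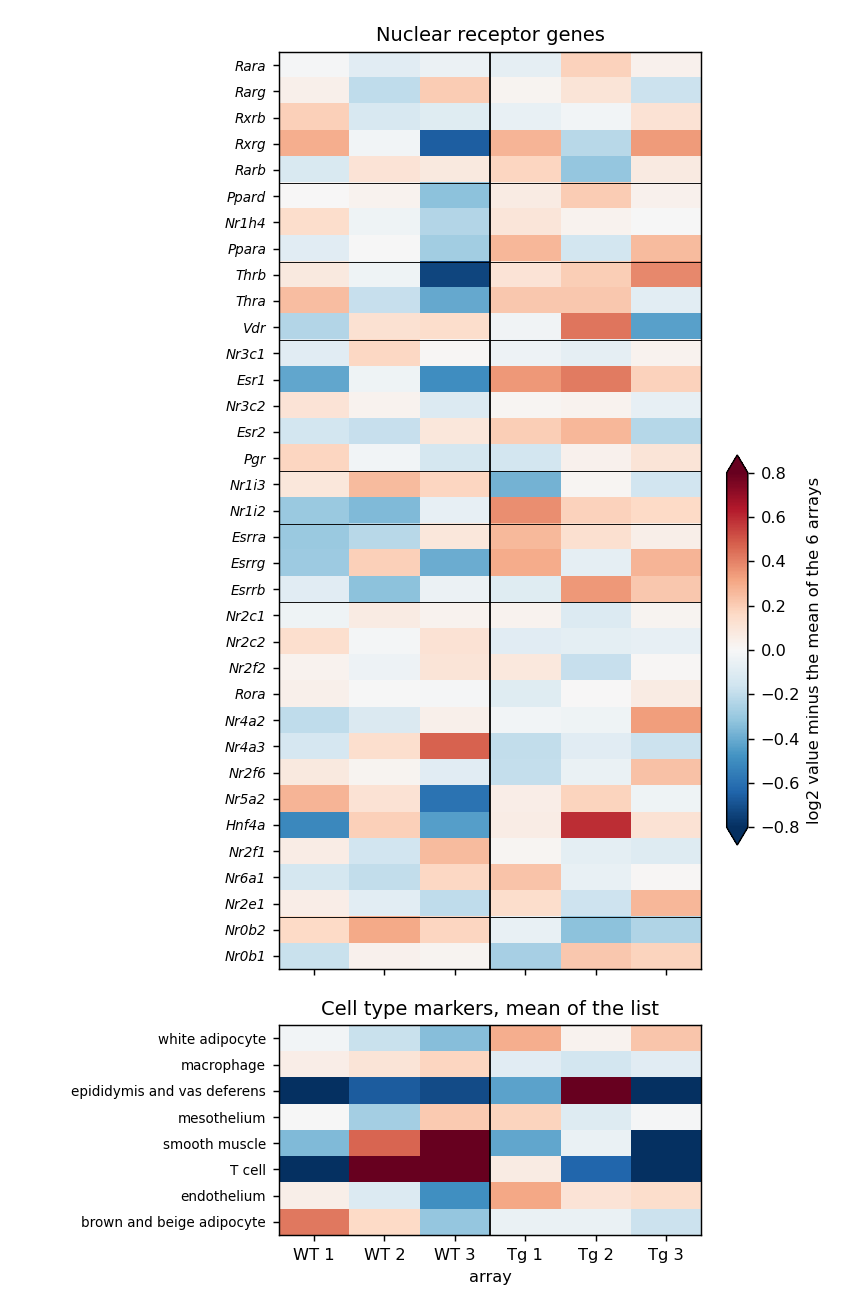
Log2 value of each array minus the mean of the 6 arrays (colour) for 35 nuclear receptor genes, in ligand classes divided by lines, and below for the mean of 8 cell type marker lists; colours saturate at 0.8. WT 3 is blue in Thrb, Rxrg, Nr5a2 and Esr1 as well as in the white adipocyte and endothelial lists, and Tg 2 is red in Hnf4a, Vdr, Esr1 and the epididymis list.

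A further 10 nuclear receptors outside the 36 had a row of their own. Of these, 7 read higher in Tg, and 0 passed the threshold. Pparg, the receptor that drives fat cell differentiation, read 9.06, 9.0 and 8.89 in WT and 9.38, 9.08 and 9.26 in Tg. Its groups did not overlap, and it differed by 0.26 ± 0.12 (adjusted p = 0.52 in limma). Rxra, its heterodimer partner, overlapped and differed by 0.082 ± 0.11. Nr1h3, which encodes LXR-alpha, differed by -0.083 ± 0.13, and the clock repressors Nr1d1 and Nr1d2 by 0.16 ± 0.16 and -0.19 ± 0.11. Nr4a1 differed by 0.072 ± 0.14. The dim Nr5a1, the steroidogenic factor, was higher by 0.22 ± 0.12, with WT 1 and Tg 3 both at 1.98 at this rounding.

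Coregulators were close between the genotypes. Of 13 coactivators, 5 read higher and 8 lower in Tg, within -0.11 to 0.14, and of 7 measured corepressors, 2 read higher and 5 lower, within -0.15 to 0.27. Tbl1x, a subunit of the NCoR corepressor complex, read 8.43, 8.42 and 8.20 in WT and 8.59, 8.67 and 8.60 in Tg, without overlap, a difference of 0.27 ± 0.11 (adjusted p = 0.46 in limma). The acetyltransferase gene Kat2b was higher without overlap by 0.14 ± 0.09, and the corepressor gene Lcor lower with a difference of -0.10 ± 0.09.

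Among 20 measured genes that make or break down receptor ligands, 10 read higher and 10 lower in Tg. The groups did not overlap in 4, a share near the 18.2% of all genes with 1 row per gene. Aldh1a1, which oxidises retinaldehyde to retinoic acid, read 9.04, 8.85 and 8.81 in WT and 9.32, 9.28 and 9.31 in Tg. The Tg arrays were all higher, by 0.41 ± 0.10 (adjusted p = 0.35 in limma). The dim Akr1c18, a progesterone-inactivating enzyme, was higher by 0.86 ± 0.28, with its highest value, 3.23, in Tg 2. The dim Cyp27b1, which activates vitamin D, was higher by 0.19 ± 0.09, and the dim Cyp26a1, which degrades retinoic acid, lower with a difference of -0.16 ± 0.10.

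Target genes of the receptors were listed by receptor. All target lists were written with earlier results of these data known, and Thrsp, Ucp1 and Idh3a in particular had been seen to differ, so the counts describe the lists and are no evidence of a receptor's activity. No gene of these lists passed the threshold. Of 8 thyroid hormone receptor targets, 4 were higher and 3 lower without overlap. With 1 row per gene, 8.85% of all genes were higher and 9.39% lower in this way. Hr, the hairless corepressor gene, read 4.85, 4.65 and 4.13 in WT and 5.34, 5.06 and 5.53 in Tg, higher by 0.76 ± 0.22. Me1, the NADPH-producing malic enzyme, was higher by 0.48 ± 0.14 and Thrsp, a lipogenic gene, by 0.80 ± 0.15, while Ucp1, the uncoupling protein of brown fat, was lower with a difference of -1.55 ± 0.30.

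Of 14 measured PPAR targets, 11 read higher, with a median of 0.25. The groups were apart in 5, where 18.2% of all genes were with 1 row per gene. Among the 5 was Plin5, a lipid droplet protein of oxidative tissues. It read 5.09, 4.84 and 4.75 in WT and 6.27, 5.36 and 5.59 in Tg (0.85 ± 0.25). The hormone gene Fgf21 was higher by 0.49 ± 0.16 and the peroxisomal enzyme gene Ehhadh by 0.59 ± 0.17, while Plin2, the droplet coat protein, was lower with a difference of -0.19 ± 0.10. Of 10 measured targets of the estrogen-related receptors, 7 read higher, with a median of 0.18. Against the same 18.2%, the groups were apart in 4. Of these, Cycs, the cytochrome c gene (0.21 ± 0.10), Idh3a of the citrate cycle (0.38 ± 0.13) and the angiogenic factor gene Vegfa (0.43 ± 0.14) were higher. Ucp1 was lower, with a difference of -1.55 ± 0.30. Esrra is itself in that list, and Idh3a and Ucp1 are also among the thyroid hormone receptor targets.

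Targets of the liver X receptors went both ways. Of 12, 7 read higher and 5 lower. Groups did not overlap in 2 higher and 2 lower genes, where 8.85% and 9.39% of all genes did so with 1 row per gene. Abcg1, the cholesterol exporter gene, read 8.72, 8.90 and 9.14 in WT and 8.66, 8.38 and 8.46 in Tg, lower with a difference of -0.42 ± 0.14, and Apoe, the apolipoprotein gene, was lower with a difference of -0.19 ± 0.11. Scd1, the fatty acid desaturase gene, was higher by 0.32 ± 0.11. Pltp, the phospholipid transfer protein gene, was apart by the same measure with a difference of only 0.057 ± 0.09.

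Glucocorticoid receptor targets read lower in 8 of 12, with a median of -0.080. Groups did not overlap in 3, all lower, where 9.39% of all genes were lower in this way with 1 row per gene. Fkbp5, the chaperone gene that feeds back on the receptor, read 5.51, 5.79 and 5.72 in WT and 5.36, 5.44 and 5.24 in Tg. The Tg arrays were all below the WT arrays, and the difference was -0.33 ± 0.12 (adjusted p = 0.43 in limma). The kinase gene Sgk1 was lower with a difference of -0.18 ± 0.09 and the transcription factor gene Klf9 by -0.13 ± 0.11, the latter with WT 1 and Tg 3 both at 8.91 at this rounding. Klf9 is also counted among the lower thyroid hormone receptor targets. Tsc22d3, another classical target, overlapped at 0.14 ± 0.14. Retinoic acid receptor targets read lower in 6 of 7, with a median of -0.045 and a range from -0.23 to 0.30. Of the lower genes, Cyp26b1 (-0.00044), Dhrs3 (-0.0016) and Rarb (-0.045) differed by less than their SE. Rarb is itself a family member, and Cyp26a1, Cyp26b1 and Dhrs3 are also among the ligand enzymes. Only the dim Cyp26a1 was apart, where 18.2% of all genes were with 1 row per gene. Estrogen receptor targets read higher in 3 of 7. Against the same 18.2%, only the cyclin gene Ccnd1 was apart, lower with a difference of -0.27 ± 0.13.

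**Figure D4:**
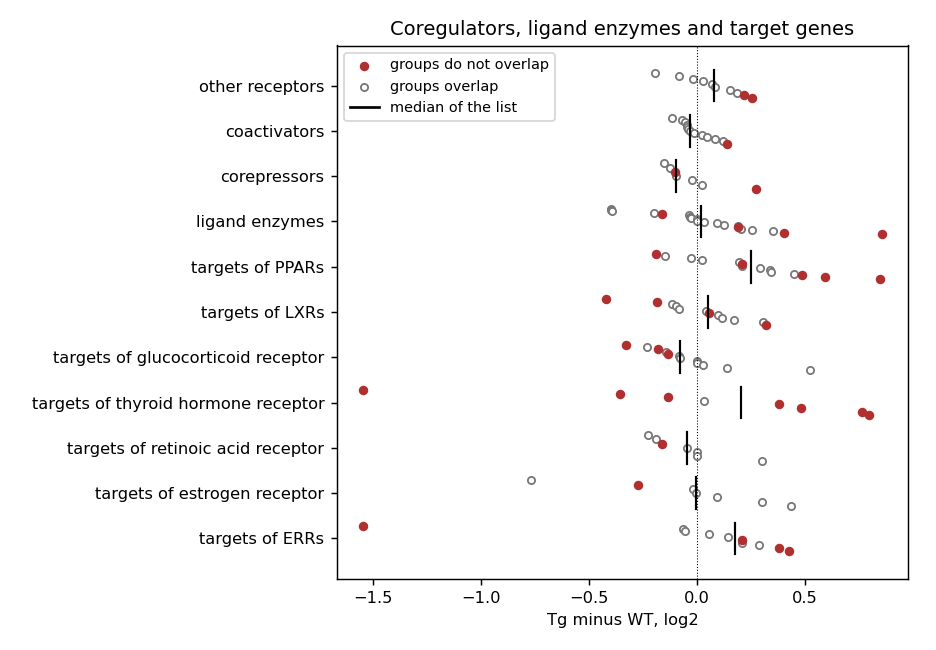
Difference between Tg and WT on the log2 scale (horizontal axis) of each gene in the lists of other receptors, coregulators, ligand enzymes and target genes; filled points are genes whose groups do not overlap and black bars are list medians. Coactivators stay within -0.11 to 0.14, PPAR targets have a median of 0.25, and Ucp1 at -1.55 is in both the thyroid hormone receptor and the estrogen-related receptor list.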

How the data were processed

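Per the labels, biotin-labelled RNA of 6 eWAT samples was hybridised to whole-transcript arrays from Affymetrix. The deposited values are log2 expression, and RMA (background correction, between-array normalization and probe summary) and limma are named per the submitters' processing notes. The sources used here do not give versions, settings or a genome build. RMA compresses differences between low values and hides a change in the total amount of RNA. The number of arrays limits the precision.

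Of 41345 rows, 23521 named 1 gene, 1814 several and 16010 none, through the platform annotation. All rows were fitted in R 4.3.3 by limma 3.58.1 (lmFit, then eBayes; 2-sided, with neither filter nor covariate), with Benjamini-Hochberg adjustment over all rows and a threshold of 0.05. The procedure was tested on simulated data, with changes larger than any receptor difference given here. That test therefore does not cover differences of the size reported. The receptor genes, ligand classes and related lists were chosen with earlier results of these data known. All members of the family list are named. Their values in every array are given where groups did not overlap and for the highest row of each class. Genes of the coregulator, ligand enzyme and target lists are named by that overlap, at most 4 per list, apart from those given next. Of the 10 other receptors, some with overlapping groups are named too, while Rorb, Hnf4g and Nr1h5, which also overlapped, are not described. Rxrg, Nr5a2, Hnf4a, Nr4a3, Tsc22d3, Cyp26b1 and Dhrs3 were detailed after their values were seen. Promoter sequences are from RefSeq (GRCm38.p6). Alternatives left out arrays, added the replicate number as a block, rescaled the arrays, filtered dim rows, restricted the adjustment to rows with 1 gene, changed the prior, averaged a gene's rows and relaxed the threshold to 0.10. The comparison of WT 1, Tg 1 and Tg 3 was chosen after seeing the data.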

Additional observations from a re-analysis of the deposited data

How the results depend on the processing

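No receptor gene and no row of the table passed the threshold in any setting tried, and 18 of the 35 genes kept their sign in all of them. At an unadjusted p under 0.05 the count of receptor genes was 4 with all arrays, 3 to 7 when 1 array was left out (7 without WT 1), where 7.51% to 12.3% of all rows did so, and 1 among the 17 genes with a mean of at least 4, where 17.5% of such rows did so. The count of genes whose groups do not overlap was 7, 9 to 12 when 1 array was left out (12 without WT 1, 11 without WT 3 or Tg 2; 25.3% to 31.2% of all rows), 4 among those 17 genes (24.4% of such rows) and 26 in WT 1, Tg 1 and Tg 3 alone, where fewer arrays make overlap rarer and 67.7% of all rows were apart. After centring on the median, 8 genes were apart (17.3% of all rows), with Esrra and Esrrb added and Nr2c2 lost. After quantile normalization 9 were (16.7%), with Esrra and Hnf4a added. Either rescaling gave 6 genes with an unadjusted p under 0.05 in limma, against 10.8% and 10.3% of all rows. The changed prior gave 3, against 10.9%. The median difference was 0.046 to 0.12 when 1 array was left out, 0.15 after centring, 0.13 after quantile normalization and -0.0046 among the 17 genes. With the replicate number as a block, 5 genes had an unadjusted p under 0.05 and the smallest adjusted p was 0.42 (limma). Such a block cannot move a difference in this balanced design. Same-numbered arrays correlated in their deviations over all rows at -0.043 to 0.0073. The labels do not say that the numbers pair arrays, and correlations over all rows cannot settle whether they do.

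Signs turned in 17 genes, Rxrg (0.26) and Thra (0.23) among them. Centring on the median gave Rarb 0.020, Rarg 0.034, Rora 0.045, Vdr 0.045, Nr3c1 0.011, Nr3c2 0.048, Pgr 0.060, Nr2c1 0.025, Nr2f2 0.0040 and Nr2f6 0.060. Quantile normalization gave Rarb 0.045, Rarg 0.019, Rora 0.039, Vdr 0.063, Nr3c2 0.065, Pgr 0.0043 and Nr2f6 0.070, and averaging its rows gave Nr3c2 0.028. WT 1, Tg 1 and Tg 3 alone gave Rxrb -0.16, Rara -0.0061, Rarb 0.24, Thra -0.18, Vdr 0.0067, Nr1h4 -0.091, Nr3c1 0.088, Nr2c1 0.057, Nr2f2 0.017 and Nr5a2 -0.26. When 1 array was left out, the range was -0.034 to 0.13 for Rxrb, -0.0057 to 0.47 for Rxrg, -0.14 to 0.098 for Rarb, -0.14 to 0.063 for Rarg, -0.056 to 0.023 for Rora, -0.24 to 0.19 for Vdr, -0.012 to 0.17 for Nr1h4, -0.0015 to 0.24 for Nr0b1, -0.11 to 0.014 for Nr3c1, -0.076 to 0.033 for Nr3c2, -0.076 to 0.079 for Pgr, -0.066 to 0.0046 for Nr2c1, -0.12 to 0.016 for Nr2f2, -0.12 to 0.089 for Nr2f6 and -0.13 to 0.30 for Nr5a2. The cause was not tested. Background levels of the arrays were not used, so how far dim rows stand above background is not known.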
